A study of Mus musculus with 3 samples.

Results

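The genes described here encode small secreted protease inhibitors of the WAP (whey acidic protein) and Kazal families. They were Slpi, Wfdc1, Wfdc2, Wfdc15b and Wfdc18 of the WAP family and Spink3, Spink4 and Spink5 of the Kazal family, 8 genes out of 27677 gene names on the array. They were taken by name, with synonyms allowed: Wfdc18 is written Expi and Wfdc15b is written Wfdc15 on the array. Of the 8, 7 had probes, 9 probes in all. Spink3 (current symbol Spink1), the pancreatic trypsin inhibitor, was matched to no probe and was not analysed here. The 8 genes were chosen by their log2 ratios in these same tissue pairs, so those ratios are a description and no count of them is evidence for a family.

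The RNA came from AID Tg mice, transgenic for the cytidine deaminase that diversifies antibody genes in B cells. A liver tumour was set beside liver outside the tumour of that animal, a stomach tumour beside stomach outside the tumour of that animal, and a lung tumour of a transgenic animal beside lung of a wild-type animal. The transgene was thus carried by the controls of liver and stomach but not of lung; its promoter, the animals' ages and the number of animals per RNA are not stated in the labels. Each pair was hybridised once, with Cy3 and Cy5 and with the dyes never exchanged. There is thus no replicate check, and no test was made between tissues. Scanner values of the liver and stomach arrays were analysed; lung values come from the authors' deposited table of listed spots.

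The sources disagree on which dye marked the tumour. The sample labels give Cy3 to the tumour, but the lists titled as raised in cancer in the authors' deposited table hold spots with more Cy5. Values are therefore log2(Cy5/Cy3) ratios, with genes named Cy5-high or Cy3-high. The list titles make Cy5 the likely dye of the tumour, and under the dye labels each direction turns.

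WAP domains are small folds held by disulfide bonds, and several of them block serine proteases such as neutrophil elastase. Kazal domains insert a loop into the active site of trypsin-like enzymes. Such inhibitors are made by mucosal surfaces, skin and glands, where they shield epithelium from the proteases of white blood cells, digestive juice and shed skin. In bulk tissue, fewer cells of a type and less RNA per cell cannot be told apart.

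RefSeq promoter windows of build GRCm38.p6 were matched for 4 of the 8 genes, each with 250 bases before and 50 after the start of transcription. They are shown because Slpi and Wfdc15b gave the Cy3-high ratios of the liver array, Wfdc18 gave the Cy5-high ratio of the stomach array, and Wfdc2 lies in the chromosome 2 cluster of Slpi and Wfdc15b. No window was matched for Wfdc1, Spink3, Spink4 and Spink5. Slpi lies at chr2:164356458-164356757 on the minus strand, Wfdc15b at chr2:164221614-164221913 on the minus strand, Wfdc2 at chr2:164562465-164562764 on the plus strand and Wfdc18 at chr11:83708754-83709053 on the plus strand. Capitals mark the motifs found among the TATA box as TATAAA, the AP-1 site as TGANTCA, the NF-kappaB motif, the site of GATA factors as AGATAA, the C/EBP site as TTNNGCAA and the ETS site as ACCGGAAGT, searched on both strands; no matches overlapped.
Slpi: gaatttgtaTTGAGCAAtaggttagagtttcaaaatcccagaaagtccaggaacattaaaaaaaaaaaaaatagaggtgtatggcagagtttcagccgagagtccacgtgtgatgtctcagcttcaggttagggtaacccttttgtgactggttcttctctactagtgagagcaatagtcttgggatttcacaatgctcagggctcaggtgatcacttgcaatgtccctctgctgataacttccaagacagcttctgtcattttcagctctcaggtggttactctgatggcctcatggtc
Wfdc15b: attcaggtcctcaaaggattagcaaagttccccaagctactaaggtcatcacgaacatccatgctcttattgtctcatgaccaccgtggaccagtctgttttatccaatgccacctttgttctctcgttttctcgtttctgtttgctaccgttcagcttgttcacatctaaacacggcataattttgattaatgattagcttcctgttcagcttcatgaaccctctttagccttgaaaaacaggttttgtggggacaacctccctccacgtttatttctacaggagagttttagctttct
Wfdc2: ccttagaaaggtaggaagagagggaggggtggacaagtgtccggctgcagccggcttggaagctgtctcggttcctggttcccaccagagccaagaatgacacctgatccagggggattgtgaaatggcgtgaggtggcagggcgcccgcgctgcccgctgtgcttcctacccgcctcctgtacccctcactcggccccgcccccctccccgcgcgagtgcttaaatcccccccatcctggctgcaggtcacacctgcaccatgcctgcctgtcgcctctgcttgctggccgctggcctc
Wfdc18: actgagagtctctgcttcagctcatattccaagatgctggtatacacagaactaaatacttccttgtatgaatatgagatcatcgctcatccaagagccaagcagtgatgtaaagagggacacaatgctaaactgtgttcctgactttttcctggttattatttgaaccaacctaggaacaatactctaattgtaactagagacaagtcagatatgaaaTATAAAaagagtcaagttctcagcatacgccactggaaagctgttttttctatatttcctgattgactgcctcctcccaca

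The Wfdc18 window held TATAAA starting 31 bases before the start of transcription, a motif present in 13.6% of all 32851 RefSeq windows. The Slpi window held TTGAGCAA starting 241 bases before the start, a match to TTNNGCAA, which 10.8% of windows hold. None of the 6 motifs was found in the Wfdc15b and Wfdc2 windows. The shares of all windows were 7.81% for TGANTCA, 1.63% for the NF-kappaB motif, 11.2% for AGATAA and 1.1% for ACCGGAAGT. Guanine and cytosine made up 65.3% of the Wfdc2 window, against 43.3% for Slpi, 42.3% for Wfdc15b, 39.0% for Wfdc18 and a median of 52.7% over all windows.

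On the liver array Slpi and Wfdc15b were Cy3-high, Wfdc1, Wfdc2, Wfdc18 and Spink4 lay within 0.14 of equality on the log2 scale, and Spink5 was not resolved. Of the 7 genes measured, 2 were at least 2-fold Cy3-high and none Cy5-high, and their median log2 ratio was -0.07. Over all 25606 genes measured, 0.0703% passed 2-fold as Cy3-high, 0.152% as Cy5-high and 0.223% either way, with a median of 0.01. The genes were chosen on this contrast, so nothing is read from these shares. The authors' deposited table listed 2 of the 7 as Cy3-high in liver and none as Cy5-high, where 1.36% and 1.75% of all gene names were listed.

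On the stomach array Spink5 and Slpi were strongly Cy3-high and Wfdc18 was Cy5-high. Of the 7 genes measured, 2 passed 2-fold as Cy3-high and 1 as Cy5-high; the median was 0.38. Over all 25322 genes measured there, 1.41% were Cy3-high and 0.873% Cy5-high at 2-fold, 2.29% either way, with a median of 0.001. The authors' deposited table listed 3 of the 7 as Cy5-high in stomach and 2 as Cy3-high, where 5.17% and 4.32% of all gene names were listed. In the authors' deposited table for lung, Wfdc1 and Spink4 were listed as Cy5-high and Spink5 as Cy3-high, while Slpi, Wfdc2, Wfdc15b and Wfdc18 were not listed. By the authors' deposited table, a share of 6.84% of gene names on the array had a spot in the lung list of Cy5-high genes, 12.4% in that of Cy3-high genes and 19.1% in either. A gene outside the lung lists has no value here, and equal signal was not shown for it.

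**Figure D1:**
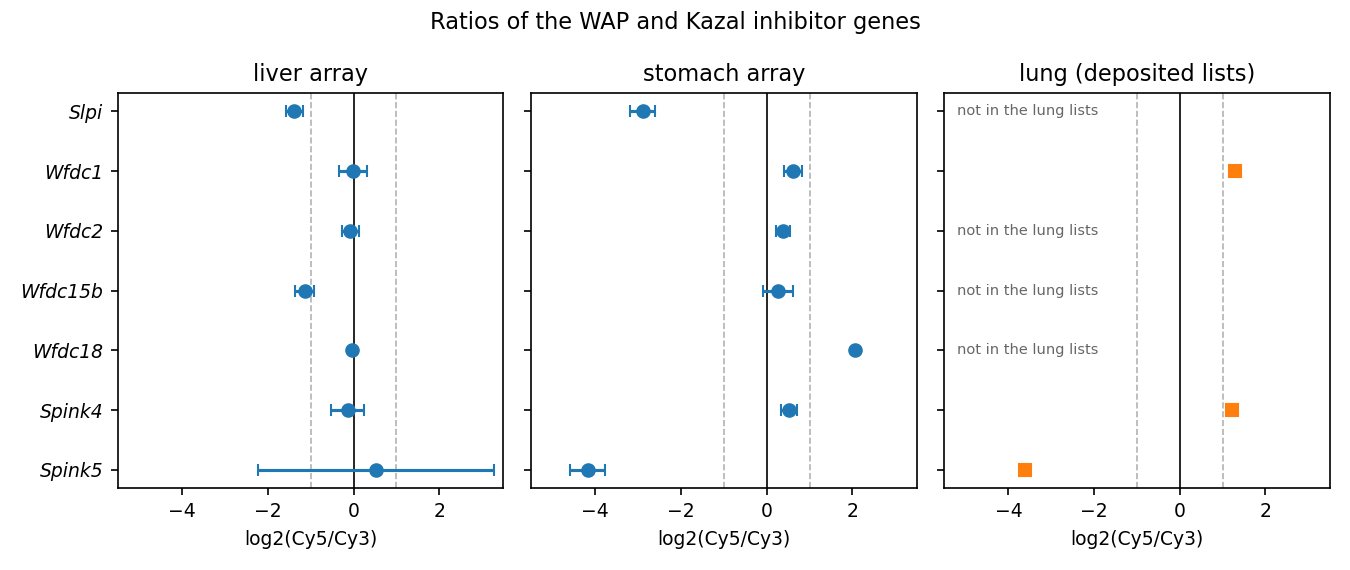
Horizontal axes give log2(Cy5/Cy3) for the 7 genes with probes; dashed lines mark 2-fold. Points of the liver and stomach arrays carry the scanner error of 1 probe, which belongs to the scanner software's own ratio. For Wfdc18 they carry the SD between 2 probes. Orange squares are the lung values of the authors' deposited table. Slpi lies left of -1 on both arrays, Spink5 lies near -4 in stomach and lung, and Wfdc18 stands at 2.06 in stomach and -0.03 in liver.

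Slpi, the secretory leukocyte protease inhibitor, blocks neutrophil elastase and cathepsin G at mucosal surfaces. Its bright probe (A_52_P472324, chromosome 2 at 164095003 to 164095062 in the files' coordinates, whose build no header or label names) had a raw intensity of 1160 in Cy3 and 652 in Cy5 on the liver array. On the stomach array the probe read 1380 in Cy3 and 370 in Cy5. The Cy3 tissue was thus the brighter one in both organs. After normalization the ratio was -1.38 in liver (scanner error 0.20, 2.61-fold) and -2.89 in stomach (error 0.29, 7.41-fold).

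A second Slpi probe, A_51_P135148, started 5214 bases away from the first. It was not well above background in either channel of either array. Its raw intensities were 129 and 75.5 in liver and 119 and 70.3 in stomach. For that dimness the probe was left out, with ratios of 0.044 in liver and 0.005 in stomach (scanner errors 4.42 and 7.77). Averaging it in would move the Slpi ratio to -0.67 in liver and -1.44 in stomach. Scaled between arrays, Slpi had a log2 brightness of 10.87 in stomach Cy3, 10.39 in liver Cy3, 9.0 in liver Cy5 and 7.98 in stomach Cy5. The Cy3 RNAs of the organs differed by 0.48 and the Cy5 RNAs by -1.02 (stomach minus liver), and with 1 array each these differences have no error from replicates.

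Wfdc15b, also called SWAM1, is a small WAP protein with antimicrobial activity. Its probe (chromosome 2 at 163955366 to 163955425) read 520 in Cy3 and 310 in Cy5 on the liver array and 206 and 288 on the stomach array. The ratio was -1.14 in liver (scanner error 0.23, 2.21-fold) and 0.27 in stomach (error 0.35). The stomach value was smaller than its own scanner error. Of the scaled levels, liver Cy3 was the highest at 9.14, followed by liver Cy5 at 8.0, stomach Cy5 at 7.73 and stomach Cy3 at 7.46. Both Slpi and Wfdc15b spots of the liver array were in the list of Cy3-high spots of the authors' deposited table.

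Wfdc18, known as Expi or WDNM1, is a WAP protein first described in mammary gland. Its 2 probes on chromosome 11 started 10 bases apart, at 83781144 and 83781154, so they read nearly the same stretch of RNA and are not independent. On the stomach array they read 159 and 217 in Cy3 against 704 and 1180 in Cy5. On the liver array they read 158 and 177 in Cy3 and 115 and 141 in Cy5. The Cy5 RNA of stomach therefore stood apart from the other 3. The ratio was 2.06 in stomach (SD 0.003 between probes, 4.16-fold) and -0.03 in liver (SD 0.01). In liver the scanner errors of the probes were 0.93 and 0.73, far larger than that ratio. With the scanner software's own ratios the probes gave 2.81 and 2.53 in stomach, with errors of 0.34 and 0.28.

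Wfdc2, or HE4, is a WAP protein of airway, gland and genital tract epithelium that is used as a serum marker of ovarian tumours. Its probe (chromosome 2 at 164309089 to 164309148) read 1350 in Cy3 and 3940 in Cy5 on the stomach array and 441 and 534 on the liver array. The normalized ratio was 0.38 in stomach (scanner error 0.17) and -0.07 in liver (error 0.20). The stomach ratio depended on the dye curve fitted by loess: with the array centred on its median alone it was 1.18. Level set Wfdc2 apart between organs more than within them, with scaled values of 11.11 and 11.49 in stomach Cy3 and Cy5 against 8.86 and 8.79 in liver.

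Wfdc1, or ps20, is a WAP protein described in prostate stroma. Its probe (chromosome 8 at 118319199 to 118319258) read 247 in Cy3 and 253 in Cy5 on the liver array, and 309 and 709 on the stomach array. The ratio was -0.01 in liver (scanner error 0.33; positive with the scanner software's ratio, 0.05, and with median centring, 0.16) and 0.61 in stomach (error 0.22), the latter below 2-fold but in the list of Cy5-high stomach spots of the authors' deposited table. In lung the authors' deposited table gave Wfdc1 a log2 ratio of 1.30, or 2.46-fold Cy5-high. With median centring alone the stomach value of Wfdc1 was 1.07.

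Spink4 is a Kazal inhibitor found in goblet cells of the gut. Its probe (chromosome 4, with coordinates from 41067636 to 41069760) read 235 in Cy3 and 211 in Cy5 on the liver array and 499 and 1280 on the stomach array. The ratio was -0.13 in liver (scanner error 0.39) and 0.52 in stomach (error 0.18). The authors' deposited table listed Spink4 as 2.34-fold Cy5-high in lung (log2 1.23). On the scaled levels the stomach RNAs, at 9.28 and 9.80, lay above the liver RNAs, at 7.58 and 7.44. The stomach ratio was 1.11 with median centring alone.

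Spink5 encodes LEKTI, a chain of Kazal domains that restrains kallikreins in skin and other squamous epithelium, and whose loss causes Netherton syndrome. Its probe (chromosome 18, from 44374193 to 44376291) read 1480 in Cy3 and 161 in Cy5 on the stomach array. On the liver array it read 124 and 95.0, and Cy3 was not well above background. Stomach Cy3 was thus the only one of the 4 RNAs with a high signal, at a scaled level of 10.88 against 6.69, 6.31 and 5.79. The stomach ratio was -4.18 (scanner error 0.41, 18.1-fold). In liver, with Cy3 not well above background, the normalized ratio was 0.52. The scanner software's own ratio was 1.72 with an error of 2.76, and no direction was resolved. In lung the authors' deposited table gave -3.62, or 12.3-fold Cy3-high.

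**Figure D2:**
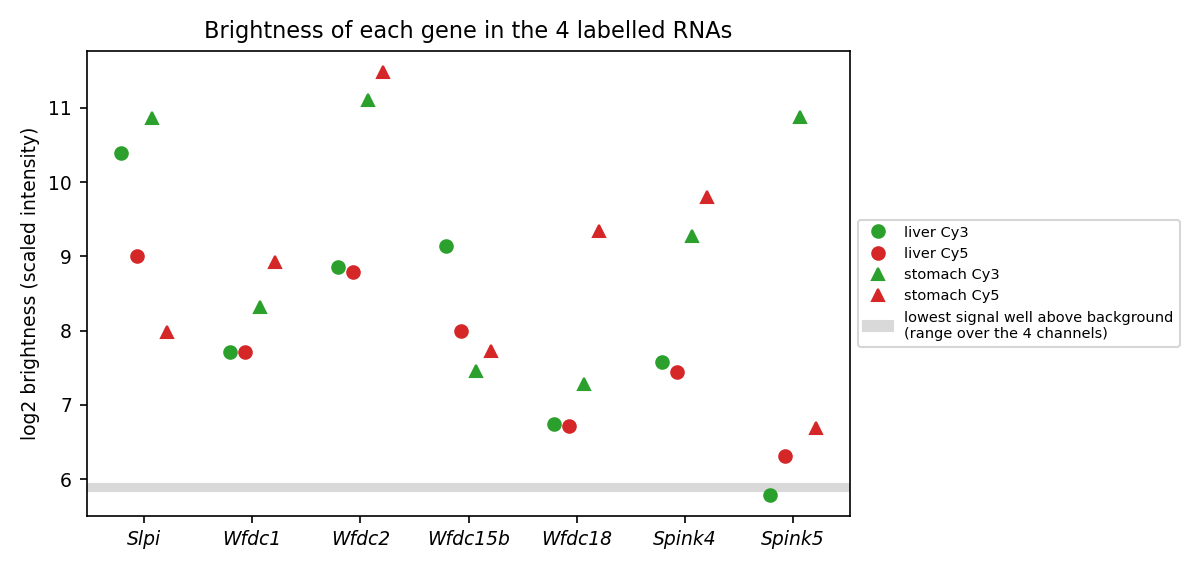
The vertical axis gives log2 brightness after loess and scaling of the arrays to each other, for Cy3 (green) and Cy5 (red) of the liver (circles) and stomach (triangles) arrays; the grey band is the lowest signal well above background. Slpi and Spink5 reach their highest value in stomach Cy3, Wfdc15b in liver Cy3, and Wfdc1, Wfdc2, Wfdc18 and Spink4 in stomach Cy5; levels of different genes are not comparable.

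Wfdc1, Wfdc2, Wfdc18 and Spink4 shared 1 order of the 4 RNAs: stomach Cy5, stomach Cy3, liver Cy3 and liver Cy5 from high to low. The liver values of each of these genes differed by at most 0.14 and were not separated beyond the scanner error, or for Wfdc18 beyond what 2 overlapping probes can show. The span from the highest to the lowest RNA was at least 32.1-fold for Spink5, whose lowest RNA, liver Cy3, was not well above background and was set at the lowest signal that was. It was 7.41-fold for Slpi, 6.48-fold for Wfdc2, 6.19-fold for Wfdc18, 5.12-fold for Spink4, 3.21-fold for Wfdc15b and 2.33-fold for Wfdc1.

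Slpi, Wfdc2 and Wfdc15b belong to the WAP gene cluster of chromosome 2, which in RefSeq order runs from Wfdc5 to Wfdc3 and holds 22 genes named on the array, 9 of them WAP genes. On the stomach array 8 genes of the interval that encode no WAP protein were well above background in both channels, and they lay between -0.09 and 0.15. Slpi at -2.89 was the only gene of the interval past 2-fold. Of the genes next to Slpi, Svs5 was not well above background in Cy3, and Matn4, coding for a matrix protein, had 0.01 with a scanner error of 1.14, so neither could show whether it shared the ratio of Slpi.

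On the liver array Slpi and Wfdc15b were the genes of the interval past 2-fold. Wfdc15a, beside Wfdc15b, had -0.43 (scanner error 0.49), and Sdc4, the syndecan gene beyond Matn4 and Rbpjl, had -0.65. The 10 genes without a WAP domain that were well above background in both channels lay between -0.65 and 0.33. In lung the authors' deposited table listed none of the 9 WAP genes of the cluster.

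**Figure D3:**
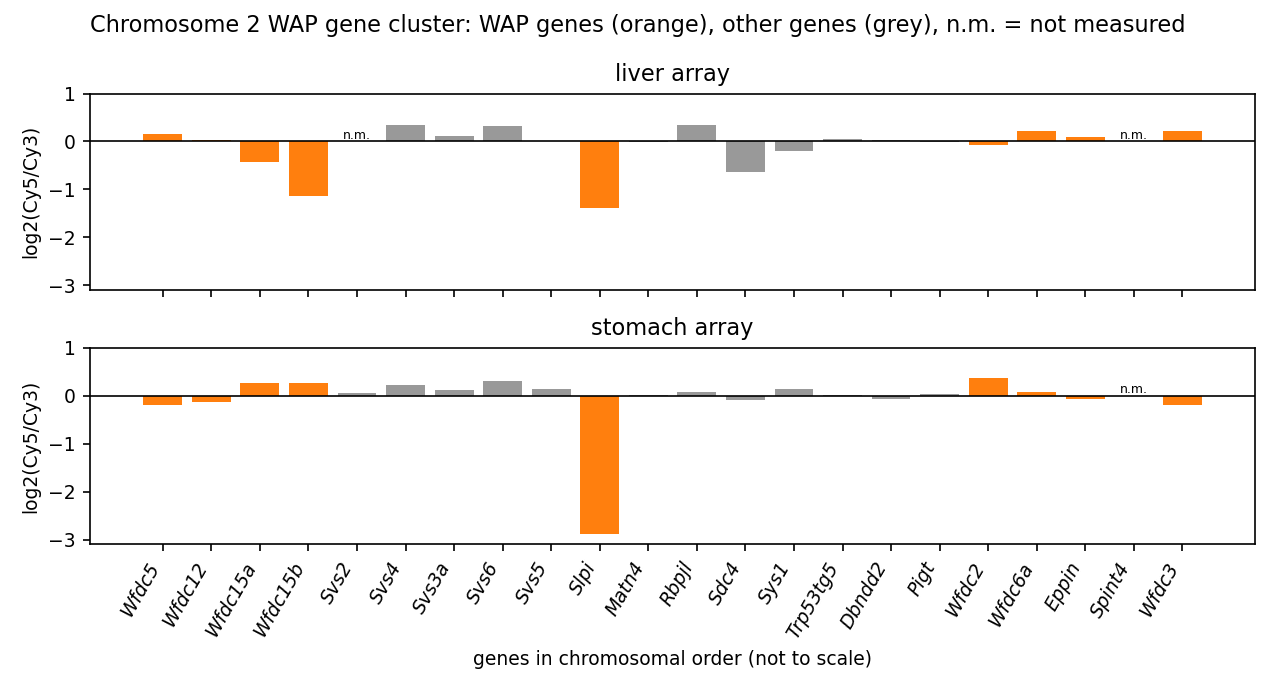
Bars give log2(Cy5/Cy3) of the genes between Wfdc5 and Wfdc3 in chromosomal order, WAP genes in orange and others in grey; n.m. marks a gene that did not pass the spot filters. Slpi is the long bar on both arrays, and Wfdc15b is long in liver alone.

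Counts of the remaining WAP and Kazal genes past 2-fold stand beside those of all genes measured, 0.223% in liver and 2.29% in stomach. At such shares a list of this size would mostly hold none, so a low count says little about a family. Of 18 other WAP domain genes 10 had a value on each array, and none was 2-fold in liver or stomach; their medians were 0.12 and -0.01, the latter 0.04 with the brightest probe alone, and their ratios ran from -0.43 to 0.27 over both arrays. With the scanner software's own ratios 1 of them was 2-fold Cy5-high in liver and 1 Cy3-high in stomach. Wfdc21 was the 1 gene of this list in the lung lists of the authors' deposited table, at -2.22. Its ratio was 0.15 in liver and -0.27 in stomach.

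Of 24 other Kazal domain genes 17 had a value on each array. None was 2-fold in liver and 1 was in stomach, beside 0.223% and 2.29% of all genes measured. In liver, 2 were Cy5-high with the scanner software's ratios and 1 with offset 10. Spink12, which lies in the Spink group of chromosome 18 near Spink5, was 8.82-fold Cy3-high in stomach (-3.14, scanner error 0.46), and its liver spot did not pass the filters. Spink6, from the same group, had 0.06 in stomach and -0.02 in liver, with errors of 0.57 and 0.67. The list medians were -0.02 in liver and -0.06 in stomach, and both turned sign under another setting, the liver median to 0.10 with the scanner software's ratios and the stomach median to 0.01 with median centring. The largest Cy5 value in liver was that of Fstl1, a follistatin-like glycoprotein, at 0.72 (error 0.96).

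In lung the authors' deposited table listed 5 of the 20 other Kazal genes on the array as Cy3-high and 1 as Cy5-high. By that authors' deposited table Spock2, a matrix proteoglycan, had a mean of -2.78 over 2 spots, Reck, a membrane inhibitor of metalloproteinases, -2.25, Tmeff2 -2.03 over 2 spots, the protease Htra1 -1.48 and Spink2 -1.08. Fst, the activin-binding follistatin, was listed at 2.47 in the authors' deposited table. The share of this list among Cy3-high lung spots has to be read beside the 12.4% for all gene names.

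Inhibitors with other folds and the proteases themselves are given from lists of their own. Of 11 measured Kunitz and cystatin inhibitors none was 2-fold in liver, where Cstb, a cathepsin inhibitor, had the largest ratio at 0.88 (SD 0.19 between 2 probes); with median centring or the brightest probe 1 was Cy5-high, and with the scanner software's ratios 1 each way. In stomach 3 of 11 were Cy3-high, all of them cystatins: Stfa3 at -2.11, Csta1 at -1.65 and Cst6 at -1.52. Over the settings 2 to 4 were Cy3-high, and of all genes measured there 1.41% were. In the authors' deposited table for lung, Ambp (6.41), Spint2 (1.71) and Cstb (1.08) were Cy5-high and Tfpi (-1.85), Cst7 (-1.71) and Cst3 (-1.62) Cy3-high. With 12 of the list on the array, these stand beside 6.84% of all gene names listed as Cy5-high in lung and 12.4% as Cy3-high.

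Of 33 serine proteases of the trypsin, elastase and kallikrein kinds measured in liver none was 2-fold, against 1 Cy5-high with the scanner software's ratios or offset 10. In stomach 4 of 35 were Cy5-high and none Cy3-high: the mast cell proteases Mcpt2 (1.54, scanner error 0.74) and Mcpt1 (1.17, error 0.40), the membrane protease Tmprss4 (1.52, error 0.20) and the elastase Cela1 (1.11, SD 0.13 between 2 probes). Over all genes measured there, 0.873% were Cy5-high and 1.41% Cy3-high. Little short of 2-fold Cy3-high were Klk8 (-0.999, error 0.575), Prss23 (-0.93, SD 1.44 between 2 probes) and Try5 (-0.90, error 0.27). The list medians were -0.001 in liver and -0.05 in stomach. Median centring turned both, to 0.05 and 0.08, and with the scanner software's ratios 6 stomach genes were Cy5-high and 5 Cy3-high.

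The proteases that textbooks pair with these inhibitors gave small ratios. Elane, the neutrophil elastase that Slpi blocks, had 0.14 in liver and 0.26 in stomach with scanner errors of 0.96 and 1.49, and Ctsg, cathepsin G, had -0.18 in both, with errors of 0.25 and 0.29. The kallikreins restrained by LEKTI had stomach ratios of -0.40 for Klk5 (error 2.23), -0.62 for Klk7 (SD 0.39 between probes) and 0.06 for Klk14 (error 0.63). None of these reached 2-fold, and most errors were as large as the ratio.

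In lung 10 of the 37 proteases on the array were in the Cy5-high list of the authors' deposited table and 2 in the Cy3-high list, beside 6.84% and 12.4% of all gene names. The highest there were Mcpt1 (3.99), Mcpt4 (3.31), Tmprss2 (3.00), Cela1 (2.94) and Tmprss4 (2.79) in the authors' deposited table, followed by Plat (2.22), Hpn (2.02), Prss27 (1.81), Klk6 (1.43) and St14 (1.37). Klk8 (-1.54) and Prss23 (-1.40) were Cy3-high in the authors' deposited table. None of the protease-activated receptors measured, 3 in liver and 4 in stomach, was 2-fold, and in lung the authors' deposited table gave F2rl1, the receptor cut by trypsin, 1.44 and the thrombin receptor F2r -1.62.

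**Figure D4:**
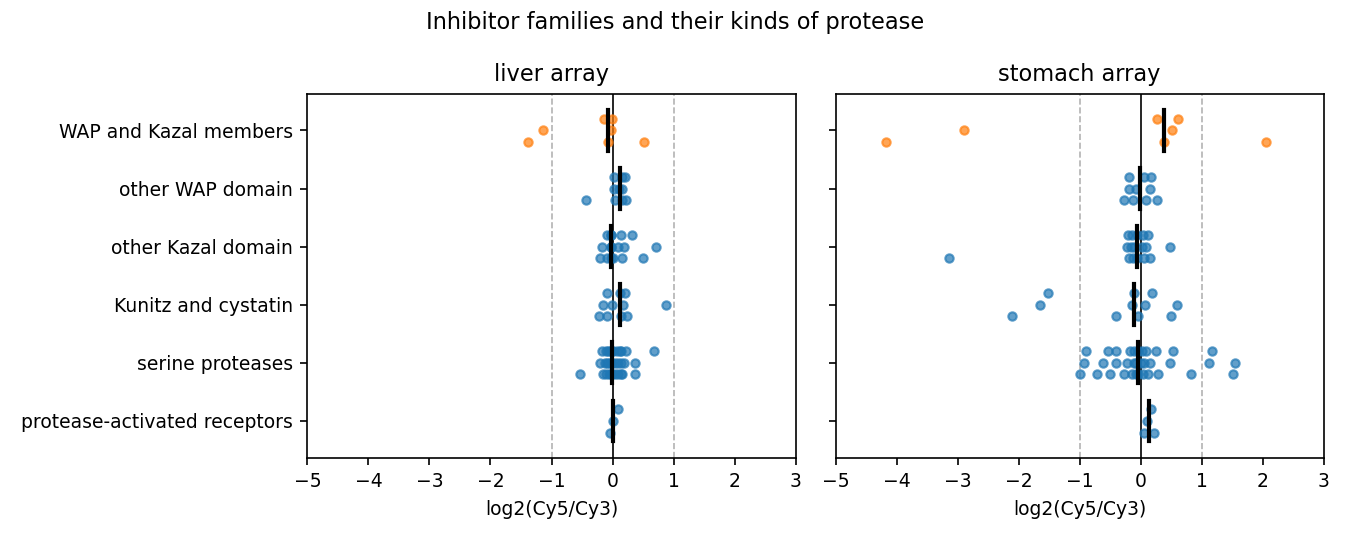
Each point is a gene with a value on the liver (left) or stomach (right) array, on a log2(Cy5/Cy3) axis with dashed lines at 2-fold; black bars are list medians. The other WAP genes lie between -0.43 and 0.27, Spink12 is the lone Kazal gene past -1 besides Spink5, and the family genes in orange were chosen with these ratios known.

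Some markers of cell types had ratios of the same sign as those of family genes on the single stomach array. Of 19 squamous epithelium markers, 14 had a Cy3-high ratio past 2-fold, while Ivl (1.16) was the 1 Cy5-high marker. Over all genes measured there, 1.41% were Cy3-high and 0.873% Cy5-high. The median of the markers was -1.62, the ratio of Trp63, and the lowest was Lor, a cornified layer protein, at -4.20. Krt4, Lgals7 and Calml3 had -3.84, -3.50 and -3.35. The ratios of Trp63 (SD 2.19), Krt13 (-1.56, SD 2.66) and Krt1 (-1.38, SD 1.94) are means of 2 probes that differed widely. Sprr1a (0.05) and Dsc3 (-0.01) lay near equality. Spink5 was Cy3-high beside the 14 markers, and the part of squamous epithelium in its ratio was not tested. In lung the picture differed: the authors' deposited table listed 6 of the 19 markers as Cy5-high, namely Ivl, Lgals7, Krt13, Sprr1a, Lor and Krt10, and 1, Calml3, as Cy3-high (-2.72), whereas Spink5 was Cy3-high. Of 13 lung epithelium markers the authors' deposited table listed 10 as Cy3-high, from -4.28 for Sftpa1 to -2.0 for Nkx2-1, and none as Cy5-high. These lung counts stand beside 12.4% of all gene names listed as Cy3-high and 6.84% as Cy5-high in the authors' deposited table. The part of lung epithelium in the lung ratio of Spink5 was not tested.

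For Slpi the markers of gastric glands are given beside the squamous ones. This pairing was made with the ratios known, so a direction shared with Slpi is no evidence. In stomach 8 of 11 gland markers were 2-fold Cy3-high, with a median of -3.50. The lowest was Chia1 at -5.26, which had a spot saturated in Cy3, while Gkn1 (0.20) and Gast (-0.03) lay near equality. Smooth muscle markers, 4 of 8, were Cy3-high there too. Neutrophil markers had 2 of 10 Cy3-high in stomach, S100a9 at -1.93 and Ltf at -1.16, and none Cy5-high. Over all genes measured in stomach, 1.41% were Cy3-high and 0.873% Cy5-high. On the liver array 8 of 11 neutrophil markers lay above 0, with S100a9 at 0.87, beside 13534 of all 25606 genes measured. Several of the 8 had errors larger than their ratios, such as Elane (0.14, scanner error 0.96) and Mpo (0.06, error 0.375). None of the 11 was 2-fold, where 0.223% of all genes were, although 2 were Cy5-high with median centring. Slpi was Cy3-high on that array. Of 8 hepatocyte markers measured in liver none was 2-fold, and their median was -0.30, which turned to 0.03 with median centring; with the brightest probe alone 1 was Cy3-high. The part of any of these cells in the Slpi ratios was not tested.

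Beside Wfdc18, Wfdc2 and Spink4, 3 of 10 goblet and intestinal markers were 2-fold Cy5-high in stomach (Clca1 3.54, Vil1 2.03, Agr2 1.06) and none Cy3-high, with 2 to 4 Cy5-high over the settings. Of 7 mucous neck cell and metaplasia markers 4 were Cy5-high (Clu 1.77, Gkn3 1.66, Muc4 1.25, Tff2 1.17), with 3 to 6 over the settings. Clca1 and Tff2 each had a spot saturated in Cy5, so their ratios are not exact. Muc2, the main goblet cell mucin, had 0.07, less than its scanner error. Below 0 lay 2 of the goblet and intestinal markers, Spdef at -0.65 (scanner error 0.19) and Atoh1 at -0.065 (error 1.30). Of the mucous neck cell and metaplasia markers Muc6 lay below 0, at -0.27 (error 0.17). Over all genes measured in stomach, 0.873% were Cy5-high and 1.41% Cy3-high. In lung, where Spink4 was listed, the authors' deposited table had 4 of 11 goblet and intestinal markers as Cy5-high, Vil1 at 5.07, Tff3 at 4.98, Agr2 at 3.22 and Clca1 at 1.80, and none as Cy3-high. Lung counts of markers stand beside 6.84% of all gene names listed as Cy5-high and 12.4% as Cy3-high in the authors' deposited table. Where Wfdc1 was the brighter in Cy5, smooth muscle markers were not: 4 of 8 were 2-fold Cy3-high in stomach (Cnn1 -2.51, Myh11 -2.09, Des -1.99, Tagln -1.65), and the authors' deposited table listed the same 4 as Cy3-high in lung. The part of these cells in the ratios was not tested. Exocrine pancreas markers, with which Spink3 would belong, had 3 of 13 Cy3-high (Pnliprp2 -3.74, Clps -2.68 with a spot saturated in Cy3, Pnliprp1 -1.54) and 1 Cy5-high in stomach (Cela1); over the settings 2 to 5 were Cy3-high.

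The genes with the most similar ratios were found by distance on the log2 scale over the organs with values. Each gene was compared only with genes of the same lung list status: Cy5-high list, Cy3-high list or not listed. Among the 19618 genes not listed in lung, Wfdc18 was closest over liver and stomach to Ido1, a tryptophan-degrading enzyme (distance 0.14), Samd5 (0.19) and Clu (0.29). Vil1 (0.16 in liver, 2.03 in stomach), listed in lung, was outside this comparison. Within the same unlisted genes Wfdc15b was closest to Slco1a4, a liver transporter (0.28), Ddb1 (0.29) and Apoa5 (0.30). Slpi had no near match among them. Its closest genes, an array entry named NAP066348-1 (1.06), Rdh7 (1.07) and Apoa1 (1.13), had liver ratios near -0.3.

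Nearest genes are not given for Spink5, whose liver ratio was not resolved. Over the 3 organs Wfdc1 was closest to Uchl5 (0.04), Syngr1 (0.05) and Eif1a (0.05), and Spink4 to Cib1 (0.05), Mrps22 (0.07) and Fos (0.08). Small ratios such as those of Wfdc1 and Spink4 have many close genes among the 1838 candidates of that lung list, so a small distance says little about them.

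Array-wide, 82.3% to 90.0% of the 41534 gene spots were well above background in each channel. The tissues carried their defining genes: Alb, the albumin of hepatocytes, was saturated in both channels of the liver array and read 170 and 191 in stomach, whereas Atp4b of parietal cells read 32900 and 3090 in stomach and 223 and 226 in liver. Of the genes past 2-fold in liver, 68.4% were Cy5-high, against 56.3% with the scanner software's ratios, 52.1% with offset 10 and 94.0% with median centring. In stomach the share was 38.2%, against 51.0% with the scanner software's ratios and 81.2% with median centring. The directions of Slpi, Wfdc15b in liver, Wfdc18 in stomach and Spink5 in stomach were the same under all 7 other settings.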

How the data were processed

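RNA of each tissue pair (500 ng, Qiagen kit, linear amplification with Agilent's low-input kit, per the labels' protocols) was hybridised to 1 Agilent 2-colour mouse array per organ. Agilent Feature Extraction 8.5.1.1 read the scans, per the submitters' processing notes. Per the file headers, the deposited intensity columns hold raw spot and local background intensities, and processed intensities corrected for background and dye; the deposited log10 ratio sets Cy5 over Cy3 and carries the scanner's own error, and the deposited p-value tests that ratio for 1 spot. That p-value was used only to describe the lists. The table deposited by the authors stacks 6 lists of log10 ratios; its liver and stomach spots had scanner p-values up to 0.0100 and folds from 1.35, and its lung lists (2288 and 4064 spots) folds from 2. Lung spots were joined by spot number, taken to mean the same array design; 4 columns of signals and backgrounds in that table could not be tied to a sample and were not used.

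Backgrounds were corrected with normexp (offset 50, which pulls dim ratios towards 0) and ratios normalized by loess in limma 3.58.1 (R 4.3.3), controls at weight 0. Controls and outlier spots were dropped; a probe counted if 1 channel was well above background and it was not saturated in both. Spots of a probe and then probes of a gene were averaged. An error is the probes' SD, or the scanner error of a lone probe, and covers measurement only. The scanner error belongs to the scanner software's own ratio, which is made without the offset. Beside a normalized ratio it is a rough guide. With 1 array per organ, genes were counted at 2-fold and not tested. A gene dim in 1 channel on all probes is bounded by the bright signal over its dim one or the floor of detected probes, whichever is higher, after loess and Aquantile scaling, and is open to dye bias. The normalization was tested on simulated data. Gene names, gene order and promoter windows came from RefSeq (GRCm38.p6), which named 79.4% of 41174 probes. Python 3.11.15, numpy 2.4.6, pandas 2.3.3 and matplotlib 3.10.9 were used.

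The genes and lists were chosen with earlier results of these data known. Named were the 8 family genes, list genes past 2-fold (at most 4 per array and direction) or in the lung lists, and the 3 genes nearest in ratio (not for Wfdc2, under 2-fold in every organ measured, or Spink5, unresolved in liver); proteases that textbooks pair with the inhibitors, cluster neighbours and other list genes below 2-fold were added after their values were seen. The protein comparison that was planned was not made. Alternatives were the scanner's ratios, offset 10, median centring, other filters on dim or saturated probes, and the brightest probe.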

Additional observations from a re-analysis of the deposited data

Results flagged for a closer look

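In liver against stomach or lung, several family genes had ratios of opposite sign, with at least 1 organ past 2-fold; with 1 array per organ none of these differences was tested. Wfdc18 differed by -2.08 between liver (-0.03) and stomach (2.06), and Wfdc15b by -1.41 between liver (-1.14) and stomach (0.27, within its error of 0.35). The 2 liver probes of Wfdc18 had scanner errors of 0.93 and 0.73, so the sign of its liver ratio is not resolved. The measured liver ratio of Spink5 (0.52) differed by 4.70 on the log2 scale from stomach (-4.18) and by 4.14 from the lung value of the authors' deposited table (-3.62). Liver Cy3 of Spink5 was not well above background and its liver ratio ran from 0.20 to 1.72 over the settings with a scanner error of 2.76, so neither its sign nor these sizes are settled. Between liver and the lung values of the authors' deposited table, Wfdc1 differed by -1.31 (-0.01 against 1.30) and Spink4 by -1.36 (-0.13 against 1.23). Both liver ratios lay within their scanner errors, and that of Wfdc1 turned positive with the scanner software's ratio (0.05) and with median centring (0.16), so its opposite sign does not hold there.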

How the results depend on the processing

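The number of family genes past 2-fold was 2 in liver and moved to 1 with median centring, where Wfdc15b had -0.89, and to 1 without a filter on dim probes, where averaging with the dim second probe brought Slpi to -0.67. In stomach it was 3 and moved to 6 with median centring, which brought Wfdc1, Wfdc2 and Spink4 past 2-fold. Spink5 in liver, dim in Cy3, passed 2-fold with the scanner software's ratios (1.72) and offset 10 (1.33). Over all genes, 57 were past 2-fold in liver, against 961 with the scanner software's ratios, 217 with offset 10 and 117 with median centring; in stomach 579 were, against 2142, 1028 and 1252. The causes were not tested, other than the averaging of the dim Slpi probe. No ratio past 2-fold of a family gene changed sign under any of the 7 settings. The saturation filter and the brightest probe changed no family gene's side of 2-fold. No paired analysis was possible because each organ had 1 array. Signal over background limits Spink5 in liver and the second Slpi probe. Having 1 array per organ limits the precision of every ratio.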
